A study of Triticum turgidum subsp. durum with 12 samples.

Results

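In the leaves of *phyB*-null wheat, 136 genes had mean transcript levels of no more than 25% of those in both *phyC*-null and WT plants, while those other genotypes stayed within 2-fold of each other. The genes were chosen from the TPM (transcript abundance scaled by gene length and by the size of the library) of 75769 high confidence gene models. Of these, 23043 had a mean of at least 2 TPM in both *phyC*-null and WT with the means within 2-fold. In 167 of the 23043 genes, the *phyB*-null mean was at most 25% of each of the other means, and 31 of the 167 were left out because a *phyB*-null library reached the range of another genotype. Genes named in the paper's own lists of selected genes were to be dropped as well, but none of the 136 was among the 71 identifiers in those lists. Every *phyB*-null library lay below every other library in 1433 of the 23043 genes (6.22%), whatever the size of the difference. Since the TPM of all 12 libraries chose the genes, the low *phyB*-null level is a description of them and carries no test here.

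The study compared 3 genotypes of the tetraploid durum wheat variety Kronos, which has an A and a B genome. The *phyB*-null and *phyC*-null lines each combine loss-of-function mutations, induced with EMS, in the A and B copies of the gene for phytochrome B or phytochrome C, and they were backcrossed to Kronos. WT was a single Kronos line used as the control for both mutants, and all plants carry the *Ppd-A1a* allele of Kronos, which reduces photoperiod sensitivity. Days had 8 h of light at 20 °C and nights 16 h at 18 °C, and 4 plants per genotype gave 1 library each at 8 weeks of age. RNA came from the last fully expanded leaf, although another label calls it the third leaf. At that age the shoot apices of both mutants were still vegetative and those of WT had begun spike development, so that stage differs between WT and both mutants but not between the mutants. The mutations of a line other than those in the phytochrome genes were not analysed here.

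Phytochromes are red and far-red light receptors. In red light they turn into an active form that enters the nucleus, where it leads to the breakdown of PIF transcription factors and changes the transcription of many target genes. Phytochrome B is the main receptor of red light in green plants, and in wheat both PHYB and PHYC hasten flowering in long days. The genes described here include a central transcription factor of the circadian clock, receptors for abscisic acid, transporters of sugars and nitrogen, and enzymes of flavonoid, terpene and polyamine metabolism. Gene descriptions come from the readable part of the annotation tables that accompany the paper and cover 107 of the 136 genes, and the other 29 are named by identifier alone. Identifiers give the chromosome of the IWGSC RefSeq v1.0 assembly and the order of genes along it.

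The summed gene counts were 37365465 to 45967798 in the *phyB*-null libraries, 45144359 to 58944135 in those of *phyC*-null and 39605997 to 45698270 in those of WT. The deepest library, *phyC*-null replicate 3, had a TMM factor of 0.761 (TMM corrects library sizes for composition), below the range of 0.875 to 1.12 of the others. It was the lowest of its genotype for 72 of the 136 genes, and the same count over the 23043 genes was not made. Its values enter the *phyC*-null means below. The leaf label was checked with 17 photosynthesis genes, whose summed level was 12110 to 19517 TPM in *phyB*-null, 7990 to 28783 TPM in *phyC*-null and 9411 to 16944 TPM in WT. These sums overlapped, but 10 of the 17 genes were called higher in *phyB*-null than in WT and none lower, with a median log2 fold change of 1.20 over the 17. The 71 genes of the inflorescence and meristem list that are not members summed to 787 to 992 TPM in *phyB*-null (3 of them at 0 in all libraries), 705 to 1091 TPM in *phyC*-null (1 at 0) and 780 to 915 TPM in WT (none at 0). The part of either list in the results was not tested. The tables pair PHYB and PHYC with no identifier, so the mutated genes were not used as a check of the genotypes. In such bulk samples, fewer cells of a type cannot be told apart from less RNA per cell.

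Across the 136 genes, the *phyB*-null mean ran from 0 to 59.997 TPM with a median of 1.30 TPM. The *phyC*-null means ran from 2.06 to 419 TPM (median 10.2 TPM) and the WT means from 2.03 to 462 TPM (median 9.36 TPM). Relative to the lower of the other means, the *phyB*-null mean had a median of 17.2%. It was under 10% for 28 genes, under 5% for 10 genes and 20% or more for 51 genes. Only 1 of the 136 genes had no count in any *phyB*-null library, so the set is one of strongly lowered transcripts rather than of absent ones. Just inside the limit lay a glycosyltransferase (TraesCS2B01G428700, 24.97% of the lower mean), a NAC transcription factor (TraesCS2A01G566000, 24.7%) and TraesCS5B01G191300 (24.7%). Just outside lay TSJT1 (TraesCSU01G021600, 25.1%), an NPH3 family gene (TraesCS4A01G192900, 25.2%) and a putative transmembrane protein (TraesCS5A01G456300, 25.3%), which shows that the limit cuts through a continuous range. When each library was left out in turn, 78 of the 136 genes met the rule every time and 58 failed it at least once.

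**Figure D1:**
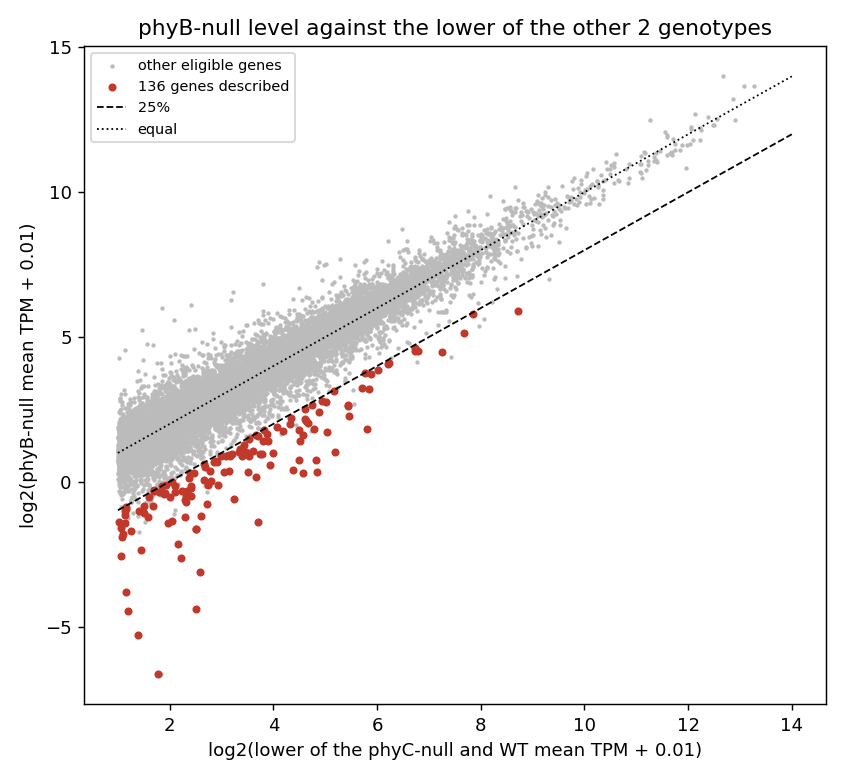
Each point is 1 of the 23043 genes with at least 2 TPM in *phyC*-null and WT, by the lower of those means (x axis) and the *phyB*-null mean (y axis), both as log2(mean TPM + 0.01). The 136 genes described (red) lie on or below the dashed line at 25% and down to the gene with 0 TPM in *phyB*-null, and most other genes (grey) lie around the dotted line of equal levels.

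In the deposited counts, edgeR's quasi-likelihood test over all 72120 genes (Benjamini-Hochberg adjusted p below 0.01) called 133 of the 136 genes lower in *phyB*-null than in WT, where 5.95% of all genes tested were called lower. Against *phyC*-null it called 121 lower, where 2.02% of all genes tested were called lower. Both comparisons hold the libraries that chose the genes, and nothing is read from these counts. The genes without a call against WT were TraesCS4A01G431300, TraesCS5B01G006500 and TraesCS7B01G171400, which have no description and whose WT or *phyB*-null libraries spread widely. The 15 members without a call against *phyC*-null include TraesCS2A01G510400, TraesCS2A01G510700, TraesCS3A01G049000, TraesCS3A01G067400, TraesCS5A01G171600 and TraesCS6A01G094200, whose values are given below. Between *phyC*-null and WT no member was called, where 0.796% of all genes tested were called. DESeq2 called 5 members in this comparison, and 2468 genes of the whole count table of 72120. An unadjusted edgeR p below 0.05 was found for 39 members. The share of all genes at that p was not computed, so nothing is read from this count. The limit of 2-fold between these genotypes is part of the choice. The log2 fold changes below come from the same fits, as *phyB*-null over WT or *phyB*-null over *phyC*-null, with their SE. Over the 136 genes they had a median of -2.69 against WT and -2.60 against *phyC*-null, beside 0.00 and -0.04 over all genes tested. TPM means are given with the SD of 4 libraries, and single values follow the order of replicates 1 to 4.

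Both copies of LHY annotated on chromosomes 7A and 7B were in the set. LHY is a MYB-related transcription factor made around dawn that represses evening genes of the circadian clock. The 7A copy, TraesCS7A01G299400, had 17.7, 8.32, 11.5 and 15.8 TPM in *phyB*-null, against 52.2, 63.3, 56.8 and 63.6 TPM in *phyC*-null and 101, 103, 95.7 and 83.3 TPM in WT. No *phyB*-null library reached those of another genotype, and the *phyC*-null libraries also lay below all WT libraries, so that the genotypes formed 3 separate levels. The log2 fold changes of the 7A copy were -2.76 ± 0.16 against WT and -2.17 ± 0.22 against *phyC*-null. The 7B copy, TraesCS7B01G188000, had a lower level with the same order of genotypes, at 5.14, 2.60, 3.41 and 4.93 TPM in *phyB*-null, against 16.7, 21.2, 19.6 and 22.1 TPM in *phyC*-null and 35.6, 36.9, 33.5 and 30.1 TPM in WT. It reached 11.8% of the WT mean in *phyB*-null and 58.5% in *phyC*-null. Leaves were taken at 1 time of day, so a lower peak and a shift of its timing cannot be told apart.

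A separation of *phyC*-null from WT like that of LHY was seen in 11 members, whose *phyC*-null libraries all lay below all WT libraries, as they did in 6.33% of the 23043 genes. In 4 members all *phyC*-null libraries lay above all WT libraries, against 2.28% of the 23043 genes. For the other 121 members the libraries of these genotypes overlapped. The mean of *phyC*-null was below that of WT for 88 members and above it for 48, with a median of 89.3% of WT beside 96.2% over the 23043 genes.

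Among the other 18 clock genes of the annotation tables, 9 were called lower, 3 higher and 6 were not called in *phyB*-null compared with WT. Genes of the PRR family, of which some repress LHY in Arabidopsis, were found in both directions. TraesCS5B01G320500 (PRR95) averaged 27.3 TPM in *phyB*-null, 44.8 TPM in *phyC*-null and 65.0 TPM in WT (log2 fold change against WT -1.14 ± 0.12, edgeR adjusted p = 3.4e-05). TraesCS4B01G115100, described as APRR3, averaged 22.6 TPM in *phyB*-null, 9.27 TPM in *phyC*-null and 8.26 TPM in WT (1.57 ± 0.12, edgeR adjusted p = 4.0e-06).

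**Figure D2:**
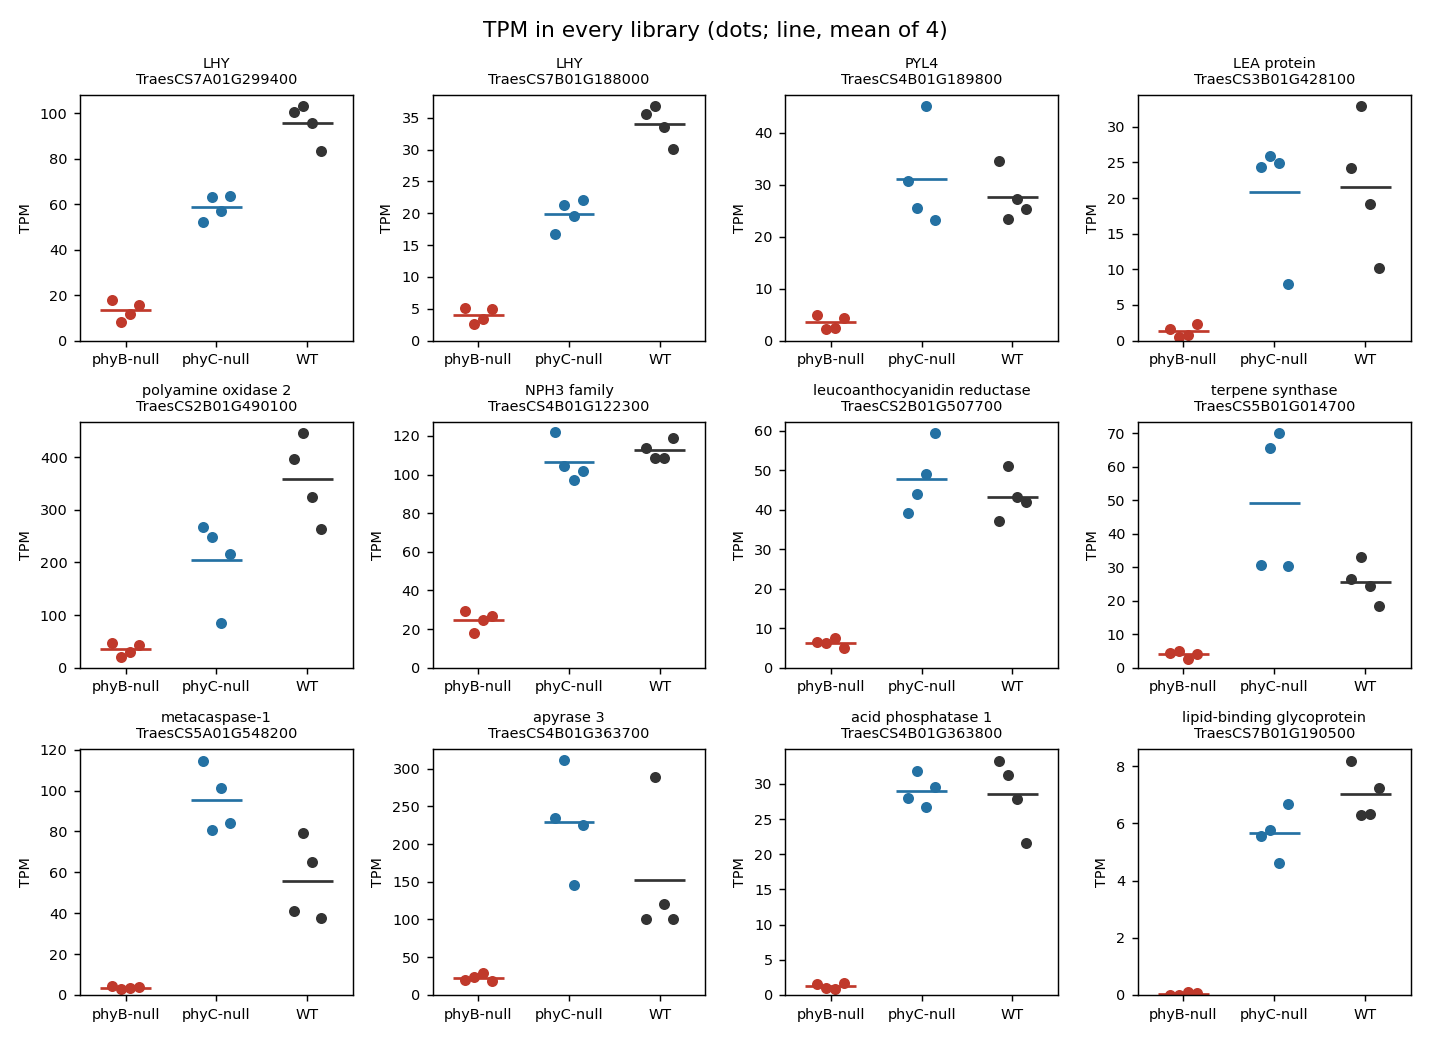
TPM (y axis, linear, from 0) in every library of 12 members, with the genotypes along the x axis, dots for libraries and a line for the mean of 4. In every panel the highest *phyB*-null library lies below the lowest library of the other genotypes, and *phyC*-null and WT overlap in most panels. Both LHY panels and the metacaspase-1 panel show 3 separate levels. In these, *phyC*-null lies below WT for LHY and above WT for metacaspase-1.

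NPH3 and BTB proteins are adaptors that bring targets to CUL3 ubiquitin ligases, and in Arabidopsis some of the NPH3 family act in phototropin signalling. Of the list of NPH3 and BTB proteins, 3 were members. The most abundant, TraesCS4B01G122300, described as root phototropism 2-like, had 29.5, 17.8, 24.5 and 26.9 TPM in *phyB*-null, against 122, 104, 97.0 and 102 TPM in *phyC*-null and 114, 109, 109 and 119 TPM in WT. Its libraries differed little within a genotype, and the log2 fold changes were -2.10 ± 0.12 against WT and -2.11 ± 0.16 against *phyC*-null. Its counterpart on 4A, TraesCS4A01G192900, is the gene just outside the limit, with 19.4 TPM in *phyB*-null, 77.2 TPM in *phyC*-null and 81.8 TPM in WT. TraesCS6B01G237800 averaged 0.799 ± 0.223 TPM in *phyB*-null, 8.48 ± 0.649 TPM in *phyC*-null and 5.06 ± 1.10 TPM in WT. TraesCS2A01G323000, a BTB and TAZ domain protein, averaged 0.364 ± 0.240 TPM in *phyB*-null, 2.18 ± 0.408 TPM in *phyC*-null and 2.65 ± 1.04 TPM in WT. Of the 9 other genes in this list, 7 were called lower in *phyB*-null than in WT and 1 higher, among them 5 with BTB and TAZ domains that were all lower.

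Abscisic acid (ABA) is the hormone of drought and seed dormancy. It binds PYR/PYL receptors, which then inhibit PP2C phosphatases and so release SnRK2 kinases. Described as PYL4 or PYL4-like receptors were 3 members, on 2B, 4A and 4B. TraesCS4B01G189800 had 4.95, 2.31, 2.47 and 4.38 TPM in *phyB*-null, against 30.7, 25.5, 45.2 and 23.3 TPM in *phyC*-null and 34.5, 23.4, 27.2 and 25.3 TPM in WT. Its counterpart on 4A, TraesCS4A01G114400, had 2.41, 0.781, 0.864 and 1.15 TPM in *phyB*-null, against 9.44, 8.73, 16.8 and 6.05 TPM in *phyC*-null and 12.03, 6.66, 8.08 and 8.61 TPM in WT. Both receptors were at 12.8% and 14.7% of their WT means in *phyB*-null, and in both *phyC*-null replicate 3 was the highest of all libraries. TraesCS2B01G105300 had 6.79, 6.03, 5.72 and 6.58 TPM in *phyB*-null, against 37.9, 25.2, 30.3 and 31.0 TPM in *phyC*-null and 28.7, 26.4, 23.0 and 29.7 TPM in WT. All *phyB*-null libraries were close together and far below the rest. Its log2 fold changes were -1.996 ± 0.13 against WT and -2.30 ± 0.17 against *phyC*-null. Another gene described as PYL4, on 2A, TraesCS2A01G089400, was not a member at 5.005 TPM in *phyB*-null, 25.5 TPM in *phyC*-null and 15.1 TPM in WT (log2 fold change against WT -1.48, edgeR adjusted p = 1.5e-05).

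The ABA and drought list also held a member encoding a late embryogenesis abundant protein, of a class that protects cells as they dry. TraesCS3B01G428100 had 1.62, 0.542, 0.805 and 2.26 TPM in *phyB*-null, against 24.4, 25.9, 24.97 and 7.96 TPM in *phyC*-null and 24.2, 32.9, 19.2 and 10.2 TPM in WT. The *phyB*-null libraries lay below all others, but *phyC*-null replicate 4 and WT replicate 4 stood well below the rest of their genotypes. A gene with the same description on 3A, TraesCS3A01G396100, averaged 0.448 TPM in *phyB*-null, 4.18 TPM in *phyC*-null and 24.1 TPM in WT (log2 fold change against WT -5.66, and -2.41 for *phyC*-null over WT, edgeR adjusted p = 6.6e-07 and 0.0060), so this gene was lower in both mutants. Among the 35 other genes of the list, 22 were called lower in *phyB*-null than in WT and 4 higher, with a median log2 fold change of -1.48. The annotated genes used for such counts lean towards changed genes, since 20.9% of the 4292 annotated high confidence genes outside the set were called lower and 22.5% higher, against 7.63% and 7.48% of all high confidence genes.

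Among transcription factors, RADIALIS-like genes, whose namesake is a small MYB protein that patterns the snapdragon flower, were the most numerous with 6 members on 1A and 1B, and the most abundant of them, TraesCS1B01G449100, had 24.0, 10.9, 14.2 and 19.4 TPM in *phyB*-null, against 104, 81.5, 53.7 and 61.4 TPM in *phyC*-null and 125, 149.7, 116 and 84.6 TPM in WT. TraesCS1B01G449200 was at 3.71% of its WT mean in *phyB*-null. Since these genes lie side by side and may be near-identical, reads that fit several copies are missing from their counts. Of the 12 other genes of this list, 6 were called lower in *phyB*-null than in WT and 0 higher. Next to the 1B members, the RADIALIS-like TraesCS1B01G449400, not a member, averaged 0.589 TPM in *phyB*-null, 8.51 TPM in *phyC*-null and 19.0 TPM in WT.

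Other regulators stood alone. An ethylene response factor, TraesCS2B01G436300, averaged 5.76 ± 1.36 TPM in *phyB*-null, 24.2 ± 2.55 TPM in *phyC*-null and 25.7 ± 4.84 TPM in WT. A bZIP factor, TraesCS3A01G330800, averaged 0.683 ± 0.337 TPM in *phyB*-null, 4.02 ± 1.54 TPM in *phyC*-null and 6.87 ± 1.57 TPM in WT. TraesCS7A01G260900, annotated as the MADS-box gene TaFLC-A1, averaged 0.314 ± 0.184 TPM in *phyB*-null, 11.1 ± 1.97 TPM in *phyC*-null and 5.64 ± 5.48 TPM in WT. Its WT libraries had 13.8, 3.67, 2.92 and 2.17 TPM, and without WT replicate 1 the WT mean was 2.92 TPM, *phyC*-null was at 380.4% of it and the gene no longer met the rule. TaAGL12-B2 (TraesCS2B01G328000), another MADS-box gene, was at 15.2% of WT in *phyB*-null, while the gene of the same description on 2A, TraesCS2A01G311100, averaged 4.35 TPM in *phyB*-null, 3.44 TPM in *phyC*-null and 4.11 TPM in WT and was not called (edgeR adjusted p = 0.54 against WT). A gene described as gibberellin 20 oxidase 2, TraesCS4B01G081200, averaged 0.433 ± 0.133 TPM in *phyB*-null, 6.07 ± 1.52 TPM in *phyC*-null and 7.15 ± 1.91 TPM in WT. GA 20 oxidases make the precursors of active gibberellins, and of the 16 other genes of the gibberellin list 9 were called higher in *phyB*-null than in WT, 3 lower and 4 were not called. Those called higher include other genes described as gibberellin 20 oxidase 2, among them TraesCS3B01G439900 (log2 fold change 6.90, edgeR adjusted p = 1.6e-08) and TraesCS3A01G406200 (5.48, edgeR adjusted p = 5.6e-08).

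Hormone, wax and resistance lists added 5 single genes. An ACC oxidase, the last enzyme of ethylene synthesis, averaged 0.513 ± 0.176 TPM in *phyB*-null, 2.21 ± 0.285 TPM in *phyC*-null and 3.47 ± 0.938 TPM in WT (TraesCS6B01G356200). A nitrilase, TraesCS6B01G261000, averaged 3.75 ± 1.89 TPM in *phyB*-null, 16.9 ± 4.80 TPM in *phyC*-null and 21.2 ± 2.90 TPM in WT, and a WAT1-related protein, TraesCS5B01G219500, averaged 1.25 ± 0.420 TPM in *phyB*-null, 11.4 ± 2.30 TPM in *phyC*-null and 14.2 ± 2.40 TPM in WT. An ECERIFERUM 3-like gene, of a family that makes the alkanes of leaf wax, averaged 0.323 ± 0.0384 TPM in *phyB*-null, 2.06 ± 0.480 TPM in *phyC*-null and 3.61 ± 0.843 TPM in WT (TraesCS6B01G178000). An NBS-LRR resistance gene of the RPP13 type, TraesCS7A01G524300, was at 14.5% of its WT mean in *phyB*-null. The lists they come from leaned no single way, with 16 of 107 other ethylene genes called lower and 15 higher, and 15 of 67 other resistance genes lower and 10 higher.

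Nitrate, peptide and amino acid carriers accounted for 6 members, as many as the RADIALIS-like genes. All belong to the NRT1/PTR, peptide transporter or amino acid permease families, which move their substrates into cells together with protons. TraesCS1A01G264500, an amino acid permease, averaged 6.94 ± 3.21 TPM in *phyB*-null, 30.5 ± 9.99 TPM in *phyC*-null and 42.7 ± 8.58 TPM in WT. TraesCS1A01G211000, described as nitrate transporter 1.1, averaged 3.14 ± 1.28 TPM in *phyB*-null, 16.9 ± 5.75 TPM in *phyC*-null and 14.7 ± 0.784 TPM in WT. The pair described as NRT1/PTR family 5.5 on 2B, TraesCS2B01G626100 and TraesCS2B01G626600, were at 22.1% and 21.4% of WT in *phyB*-null. The remaining members of the group, TraesCS3A01G392900 and TraesCS4B01G338600, were at 14.05% and 20.0%. Among the 38 other genes of this list, 29 were called lower in *phyB*-null than in WT and 2 higher, with a median log2 fold change of -1.44.

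Sugar carriers were represented by 3 members. The hexose carrier TraesCS1A01G219500 was close to silent in *phyB*-null, with 0.0386, 0.0324, 0.128 and 0.0467 TPM in *phyB*-null, against 3.09, 2.57, 2.32 and 0.921 TPM in *phyC*-null and 3.26, 2.65, 3.04 and 1.87 TPM in WT. These values rest on 15 counts summed over the *phyB*-null libraries, against 622 in *phyC*-null and 617 in WT. A sugar carrier C gene, TraesCS2B01G232900, averaged 0.778 ± 0.585 TPM in *phyB*-null, 4.27 ± 2.27 TPM in *phyC*-null and 6.25 ± 1.51 TPM in WT, and a probable inositol transporter, TraesCS2B01G266000, averaged 1.61 ± 0.306 TPM in *phyB*-null, 7.25 ± 3.18 TPM in *phyC*-null and 10.3 ± 1.46 TPM in WT. A gene for cell wall invertase (TraesCS5B01G557100), which splits sucrose outside the cell for uptake as hexose, was at 12.4% of WT. Carriers of organic acids included a plastid phosphoenolpyruvate/phosphate translocator, TraesCS3A01G130300, at 0.360 ± 0.140 TPM in *phyB*-null, 3.91 ± 1.23 TPM in *phyC*-null and 5.83 ± 1.65 TPM in WT, and a tonoplast dicarboxylate transporter, which moves malate into the vacuole, TraesCS5B01G262500, at 0.553 ± 0.189 TPM in *phyB*-null, 2.83 ± 0.800 TPM in *phyC*-null and 2.92 ± 0.564 TPM in WT. The 10 other sugar transport genes were called lower in 5 cases and higher in 3, and the 31 other genes of starch, fructan and sucrose metabolism lower in 19 and higher in 8.

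**Figure D3:**
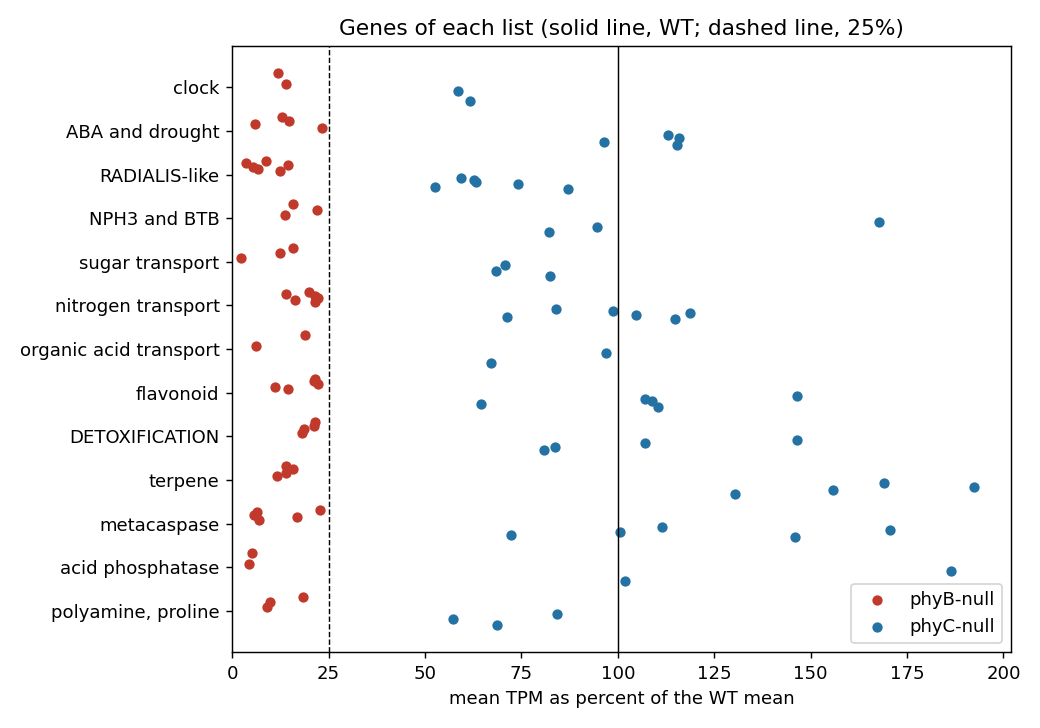
Mean TPM as a percentage of the WT mean (x axis) for the members of 13 lists of related function (rows), with *phyB*-null (red) above *phyC*-null (blue) in each row. All *phyB*-null points lie left of the dashed line at 25%, as chosen. The *phyC*-null points of the terpene and acid phosphatase lists all lie above the WT line at 100%, and those of the clock, RADIALIS-like, sugar transport, organic acid transport and polyamine and proline lists all below it.

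Genes for handling nitrogen-rich compounds were found beside the nitrogen carriers. L-asparaginases release ammonium from asparagine, a main form in which plants move nitrogen, and 3 were members, all on 2A and close together. TraesCS2A01G510700 had 6.22, 1.14, 1.67 and 3.29 TPM in *phyB*-null, against 9.18, 18.9, 14.1 and 8.59 TPM in *phyC*-null and 20.2, 15.4, 20.2 and 18.2 TPM in WT. Its neighbour TraesCS2A01G510800 had 6.36, 1.77, 1.47 and 3.73 TPM in *phyB*-null, against 13.3, 21.4, 24.0 and 14.4 TPM in *phyC*-null and 18.5, 15.7, 19.9 and 22.9 TPM in WT. In both genes *phyB*-null replicate 1 was the highest of its genotype and still below the lowest *phyC*-null library, and *phyC*-null and WT overlapped. Against *phyC*-null, TraesCS2A01G510700 was not called (edgeR adjusted p = 0.017) and TraesCS2A01G510800 was (edgeR adjusted p = 0.0052). The remaining asparaginase, TraesCS2A01G510400, which was named after its values were seen, averaged 0.738 ± 0.558 TPM in *phyB*-null, 3.71 ± 1.78 TPM in *phyC*-null and 4.59 ± 1.12 TPM in WT. Proline dehydrogenase (TraesCS1B01G223300), the first enzyme of proline breakdown in mitochondria, averaged 0.705 ± 0.265 TPM in *phyB*-null, 5.31 ± 0.483 TPM in *phyC*-null and 7.73 ± 1.21 TPM in WT.

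Polyamines are small positively charged amines that are built by spermidine and spermine synthases and broken down by polyamine oxidases, and both kinds of enzyme were in the set. The polyamine oxidase TraesCS2B01G490100 was among the most abundant members, with 47.4, 19.4, 30.3 and 42.6 TPM in *phyB*-null, against 267, 248, 85.2 and 217 TPM in *phyC*-null and 397, 445, 325 and 263 TPM in WT. *phyC*-null replicate 3 was far below the other libraries of its genotype, and still above every *phyB*-null library. The log2 fold changes were -3.27 ± 0.21 against WT and -2.49 ± 0.28 against *phyC*-null. The gene of the same description on 2A, TraesCS2A01G467300, had 24.5 TPM in *phyB*-null, 64.3 TPM in *phyC*-null and 99.6 TPM in WT and missed the rule. The spermine synthase-like TraesCS7A01G350100 had 27.6, 13.6, 20.4 and 30.7 TPM in *phyB*-null, against 115, 129, 76.0 and 104 TPM in *phyC*-null and 106, 173, 129.6 and 95.4 TPM in WT. The *phyC*-null and WT libraries overlapped, and the lowest of them lay well above the highest *phyB*-null library.

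Acid phosphatases and apyrases remove phosphate from small molecules and nucleotides. A neighbouring pair on 4B combined both: the apyrase TraesCS4B01G363700 had 19.2, 23.4, 29.2 and 18.2 TPM in *phyB*-null, against 235, 311, 146 and 225 TPM in *phyC*-null and 101, 289, 120.4 and 100.4 TPM in WT. Without WT replicate 2 the WT mean was 107 TPM and *phyC*-null was at 214% of it, outside the limit of 2-fold. The acid phosphatase TraesCS4B01G363800, annotated after a stem glycoprotein that in soybean serves as a vegetative store of nitrogen, had 1.55, 0.940, 0.870 and 1.66 TPM in *phyB*-null, against 28.02, 31.8, 26.8 and 29.6 TPM in *phyC*-null and 33.3, 31.3, 27.8 and 21.6 TPM in WT. In this gene *phyC*-null and WT were at the same level (*phyC*-null at 102% of WT) and *phyB*-null at 4.40%. The log2 fold changes were -4.40 ± 0.19 against WT and -4.54 ± 0.22 against *phyC*-null. Another acid phosphatase, on 7A, TraesCS7A01G040400, had 1.02, 1.47, 1.66 and 0.708 TPM in *phyB*-null, against 45.6, 61.3, 18.1 and 51.6 TPM in *phyC*-null and 18.3, 35.7, 16.7 and 24.0 TPM in WT. Its *phyC*-null mean was 186% of WT, close to the limit of 2-fold.

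Flavonoids are made from phenylalanine through a pathway that ends in anthocyanins, flavonols and proanthocyanidins. The flavonoid list, found by gene descriptions, held 5 members. Leucoanthocyanidin reductase, which makes the catechin units of proanthocyanidins, was represented by TraesCS2B01G507700 with 6.46, 6.16, 7.55 and 5.09 TPM in *phyB*-null, against 39.1, 43.9, 49.0 and 59.5 TPM in *phyC*-null and 37.2, 51.0, 43.2 and 41.9 TPM in WT. The genotypes other than *phyB*-null overlapped, and the log2 fold changes were -2.66 ± 0.15 against WT and -2.92 ± 0.23 against *phyC*-null. TraesCS5B01G268100 is described both as a dihydroflavonol 4-reductase and as cinnamoyl-CoA reductase 4, so its place in the pathway is uncertain. It averaged 2.10 ± 0.467 TPM in *phyB*-null, 12.1 ± 4.24 TPM in *phyC*-null and 18.7 ± 5.17 TPM in WT. An anthocyanin acyltransferase, TraesCS6A01G130300, averaged 0.774 ± 0.106 TPM in *phyB*-null, 3.77 ± 0.949 TPM in *phyC*-null and 3.46 ± 0.954 TPM in WT. The remaining flavonoid members are TRANSPARENT TESTA 12-like genes on 7A and 7B, of the DETOXIFICATION family of vacuolar exporters that in the Arabidopsis seed coat load flavonoids into the vacuole. TraesCS7A01G131600 was at 21.3% and TraesCS7B01G479000 at 21.4% of WT in *phyB*-null. The flavonoid list as a whole did not follow them: of its 40 other genes, 21 were called higher in *phyB*-null than in WT and 13 lower. Among these, the TRANSPARENT TESTA 12-like gene TraesCS7B01G137200 averaged 59.6 TPM in *phyB*-null, 26.9 TPM in *phyC*-null and 13.9 TPM in WT (log2 fold change against WT 2.22, edgeR adjusted p = 5.8e-07). From the same exporter family, TraesCS4A01G245300 had 17.8, 8.43, 13.2 and 18.5 TPM in *phyB*-null, against 77.6, 85.0, 39.2 and 57.4 TPM in *phyC*-null and 83.6, 88.5, 75.0 and 74.0 TPM in WT. Its counterpart on 4B, TraesCS4B01G070100, averaged 2.38 ± 0.858 TPM in *phyB*-null, 10.7 ± 4.24 TPM in *phyC*-null and 12.8 ± 2.88 TPM in WT.

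Terpene synthases turn prenyl diphosphates into volatile and defensive terpenes, and 4 of them formed a neighbouring pair on 5A and another on 5B. On 5A, TraesCS5A01G016600 had 2.25, 4.22, 1.65 and 2.39 TPM in *phyB*-null, against 16.0, 37.6, 45.1 and 19.7 TPM in *phyC*-null and 22.7, 27.4, 21.3 and 19.4 TPM in WT. Its neighbour TraesCS5A01G016700 had 0.857, 1.33, 0.609 and 0.909 TPM in *phyB*-null, against 6.22, 13.97, 16.2 and 5.28 TPM in *phyC*-null and 6.09, 8.27, 6.56 and 5.86 TPM in WT. In both, the *phyB*-null libraries lay below all others. On 5B, TraesCS5B01G014700 had 4.31, 5.05, 2.72 and 4.15 TPM in *phyB*-null, against 30.7, 65.5, 70.0 and 30.5 TPM in *phyC*-null and 26.4, 33.1, 24.3 and 18.5 TPM in WT. Its neighbour TraesCS5B01G014800 had 1.77, 2.56, 1.40 and 1.99 TPM in *phyB*-null, against 13.4, 32.2, 33.8 and 13.7 TPM in *phyC*-null and 13.4, 17.0, 13.3 and 11.4 TPM in WT. In all 4 genes *phyC*-null replicates 2 and 3 were above replicates 1 and 4 and above every WT library, and their *phyC*-null means were 130.5% to 192% of WT. In *phyB*-null, replicate 2 was the highest for all 4. Reads shared among such copies are not in the counts, so how much each copy contributes is uncertain. Beside the 5B pair, TraesCS5B01G014900, also a terpene synthase, averaged 0.374 TPM in *phyB*-null, 5.26 TPM in *phyC*-null and 1.93 TPM in WT (log2 fold change against WT -2.24, edgeR adjusted p = 2.9e-04). Of the 7 other terpene genes 2 were called lower and 3 higher.

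Metacaspases are proteases of plants and fungi with a fold like that of caspases, and in Arabidopsis type I metacaspases act in cell death after pathogen attack. Of 6 metacaspase genes with a readable description, 5 were members. The described genes lean towards changed ones, and metacaspases without a readable description are not counted. The most abundant, TraesCS5A01G548200, had 4.17, 2.75, 3.25 and 4.07 TPM in *phyB*-null, against 115, 80.9, 101 and 84.1 TPM in *phyC*-null and 41.1, 79.5, 64.8 and 37.7 TPM in WT. Here every *phyC*-null library was above every WT library, and the *phyB*-null mean was 6.39% of WT. TraesCS4B01G383100 had 2.02, 1.95, 2.19 and 1.99 TPM in *phyB*-null, against 32.5, 26.7, 45.9 and 41.2 TPM in *phyC*-null and 23.9, 49.6, 42.5 and 29.4 TPM in WT, with *phyB*-null libraries within a narrow range. Its log2 fold changes were -4.03 ± 0.21 against WT and -4.20 ± 0.29 against *phyC*-null. TraesCS3B01G568100 averaged 0.648 ± 0.0587 TPM in *phyB*-null, 13.7 ± 2.87 TPM in *phyC*-null and 9.38 ± 3.34 TPM in WT. TraesCS4B01G381800 and TraesCS5A01G548600 were closer to the limit at 16.7% and 22.9% of WT. The remaining described metacaspase, TraesCS4B01G071900, had 0.118 TPM in *phyB*-null, 0.754 TPM in *phyC*-null and 2.28 TPM in WT. Its log2 fold change of *phyB*-null against WT was -4.16 (edgeR adjusted p = 4.0e-06). The *phyC*-null difference from WT of this gene did not pass the threshold (edgeR adjusted p = 0.027).

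A few genes were nearly or fully silent in *phyB*-null. TraesCS5A01G122000, described as a DEA(D/H)-box RNA helicase, had no count in any *phyB*-null library, against 256 counts in *phyC*-null and 244 in WT, or 0, 0, 0 and 0 TPM in *phyB*-null, against 2.75, 3.28, 1.97 and 5.68 TPM in *phyC*-null and 2.70, 4.05, 3.78 and 5.02 TPM in WT. With a floor of 3 counts over the *phyB*-null libraries, this is at least 81.9-fold lower than WT and at least 73.0-fold lower than *phyC*-null. TraesCS7B01G190500, a lipid-binding protein of the BPI/LBP family, had 0, 0, 0.1002 and 0.0487 TPM in *phyB*-null, against 5.57, 5.77, 4.62 and 6.67 TPM in *phyC*-null and 8.19, 6.31, 6.32 and 7.25 TPM in WT, from 9 counts in *phyB*-null against 1511 in *phyC*-null and 1541 in WT. TraesCS2B01G232400, described as an organic cation/carnitine transporter, had 0.0169, 0.0426, 0.0702 and 0.0137 TPM in *phyB*-null, against 1.53, 1.94, 3.42 and 2.26 TPM in *phyC*-null and 4.21, 2.40, 2.05 and 5.49 TPM in WT, and its counterpart on 2A, TraesCS2A01G204900, was listed at 0 TPM in *phyB*-null, 0.434 TPM in *phyC*-null and 0.743 TPM in WT. TraesCS3A01G049000, without a description, had 1 count in *phyB*-null, against 38 in *phyC*-null and 32 in WT (ratio of WT to *phyB*-null 32.2, 95% exact interval 5.38 to 1313, counting error only). TraesCS6B01G289300, a member of a senescence-associated family, had 1 count in *phyB*-null against 171 in *phyC*-null and 241 in WT, which is a ratio of WT to *phyB*-null of 243 (95% exact interval 43.2 to 9628, counting error only). Its level in WT was uneven, with 0, 0, 0 and 0.0629 TPM in *phyB*-null, against 5.14, 2.42, 0.656 and 2.21 TPM in *phyC*-null and 9.08, 3.08, 2.76 and 2.52 TPM in WT.

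The order of identifiers along the chromosomes was used to see whether the neighbours of these silent genes were low as well. Beside TraesCS5A01G122000, the nearest models TraesCS5A01G121900 and TraesCS5A01G122100 were not called. TraesCS5A01G121900 averaged 5.14 TPM in *phyB*-null, 4.86 TPM in *phyC*-null and 4.82 TPM in WT, and TraesCS5A01G122100 averaged 1.52 TPM in *phyB*-null, 1.33 TPM in *phyC*-null and 1.29 TPM in WT. Beside TraesCS7B01G190500, TraesCS7B01G190600 averaged 2.23 TPM in *phyB*-null, 2.12 TPM in *phyC*-null and 2.18 TPM in WT, while TraesCS7B01G190400 averaged 13.8 TPM in *phyB*-null, 14.6 TPM in *phyC*-null and 21.7 TPM in WT (log2 fold change of *phyB*-null against WT -0.53, edgeR adjusted p = 0.0044). The nearest models beside TraesCS2B01G232400 and TraesCS6B01G289300 were not called. TraesCS3A01G049000 differed, since TraesCS3A01G048800, the next but one, was also lower, with 0.596 TPM in *phyB*-null, 1.33 TPM in *phyC*-null and 2.92 TPM in WT (log2 fold change of *phyB*-null against WT -2.22, edgeR adjusted p = 0.0030). Between them lies TraesCS3A01G048900, whose log2 fold change of -2.33 did not pass the threshold (edgeR adjusted p = 0.040).

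**Figure D4:**
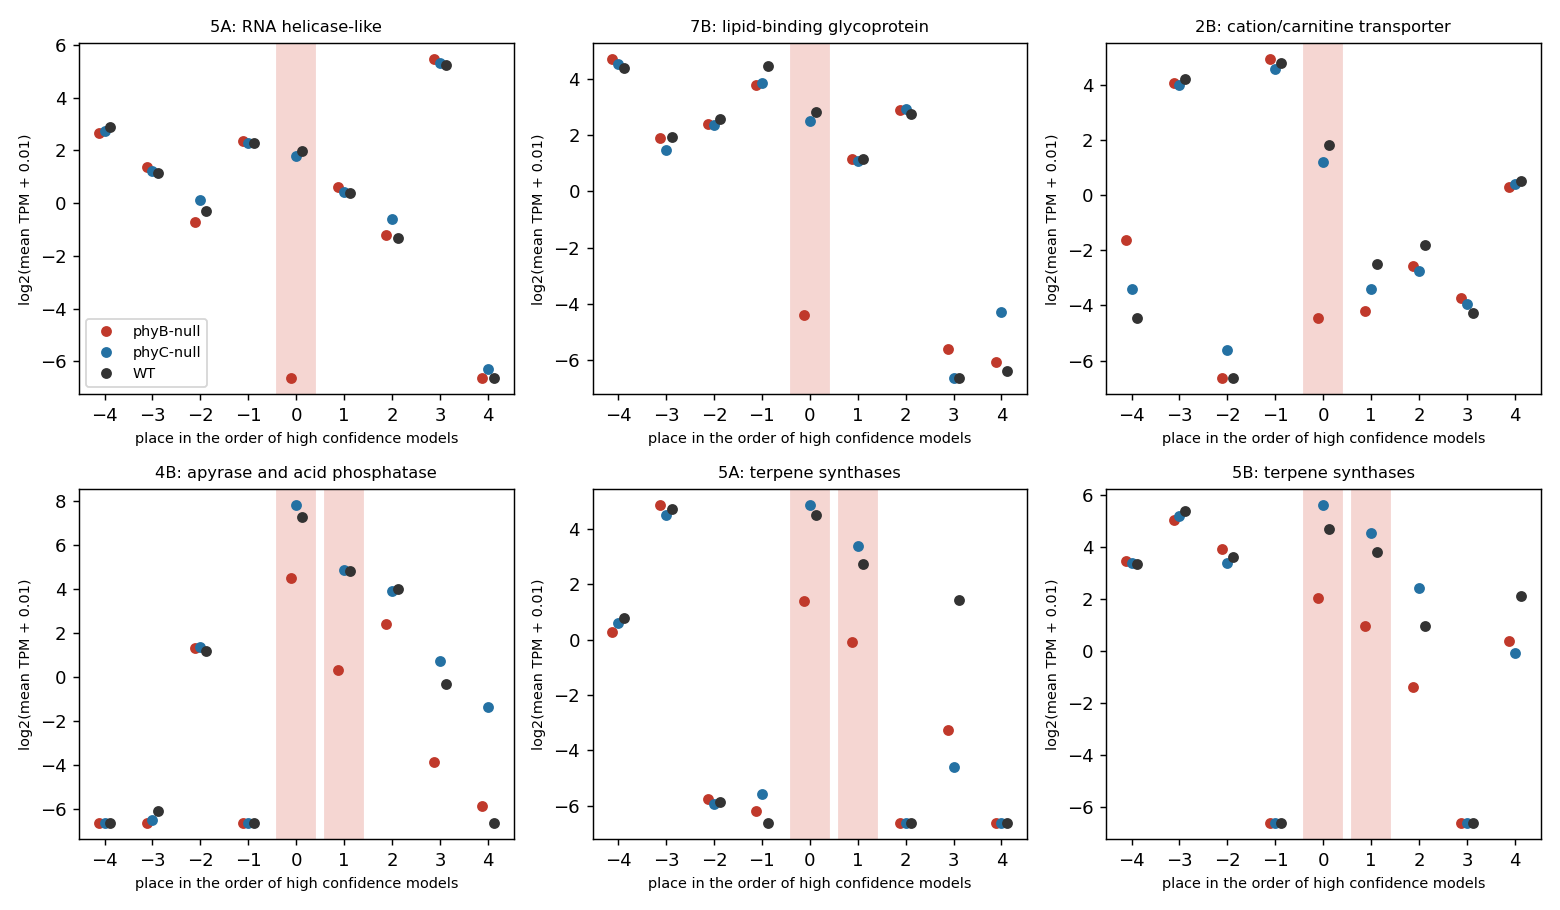
Mean TPM of each genotype, as log2(mean TPM + 0.01), for the members at 6 places and the 4 high confidence models on either side in the order of identifiers (x axis, 0 marks a member, shaded columns are members). At the 3 places in the upper row a single gene is strongly lower in *phyB*-null. In the lower row neighbouring members on 4B, 5A and 5B are low together, with further low models beside the pairs. TraesCS5A01G016900 near the 5A pair and TraesCS5B01G015100 near the 5B pair are low in both mutants, and the latter was not called in *phyB*-null against WT.

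Over the whole set, 15 members lay in 6 runs of neighbouring models. These are the RADIALIS-like genes on 1A and, in a run of 4, on 1B, the asparaginases on 2A, the apyrase and acid phosphatase on 4B and the terpene synthase pairs on 5A and 5B. The 1A run includes TraesCS1A01G419200, described as a DnaJ homolog, which averaged 1.87 ± 0.842 TPM in *phyB*-null, 11.6 ± 1.74 TPM in *phyC*-null and 20.3 ± 4.69 TPM in WT. Of the 252 neighbours of members that were not members themselves (the nearest high confidence gene of the count table on either side), 40 or 15.9% were called lower in *phyB*-null than in WT and 14 higher, where 7.63% of all high confidence genes were called lower. The B genome held 80 members (58.8%) and the A genome 55 (40.4%), while the 23043 genes they were chosen from divided into 48.9% and 50.3%. Chromosome 2B had the most, 18 of 1876 genes.

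Wheat genes mostly come as A and B copies, and 21 members could be matched to exactly 1 gene with the same description on the other genome of the same chromosome group. In 5 such pairs both genes were members, namely LHY, PYL4 on 4A and 4B, the DETOXIFICATION exporters on 4A and 4B, a tetratricopeptide protein on 3A and 3B, and a RADIALIS-like pair. Of the 11 counterparts that were not members, 9 were called lower in *phyB*-null than in WT and 1 higher. Only genes with a readable description could be found as counterparts. Of such high confidence genes outside the set, 20.9% were called lower and 22.5% higher. The tetratricopeptide gene on 3A, TraesCS3A01G368600, averaged 23.1 ± 10.6 TPM in *phyB*-null, 111 ± 18.6 TPM in *phyC*-null and 135 ± 11.9 TPM in WT, and that on 3B, TraesCS3B01G400100, averaged 9.37 ± 0.866 TPM in *phyB*-null, 52.6 ± 9.09 TPM in *phyC*-null and 64.5 ± 7.92 TPM in WT. TraesCS2A01G581000, the counterpart of the peroxisomal membrane protein gene TraesCS2B01G608900, averaged 72.4 TPM in *phyB*-null, 249 TPM in *phyC*-null and 248 TPM in WT, or 29.2% of WT in *phyB*-null. A shared description does not establish that genes are homeologs.

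The most abundant members were not all in a list. TraesCS6A01G094200, which has no description, had 33.8, 108, 67.6 and 30.4 TPM in *phyB*-null, against 109.7, 351, 1047 and 169.9 TPM in *phyC*-null and 438, 311, 517 and 580.5 TPM in WT. Its *phyC*-null libraries ranged widely, with replicate 3 the highest of all libraries and replicate 1 barely above the highest *phyB*-null library. Without *phyC*-null replicate 3 the *phyC*-null mean was 210.1 TPM, or 45.5% of WT, and the gene no longer met the rule. TraesCS2B01G608900 encodes a peroxisomal membrane protein of the Mpv17/PMP22 family and had 86.1, 27.8, 34.8 and 73.4 TPM in *phyB*-null, against 242, 284, 225 and 170.0 TPM in *phyC*-null and 281, 280.5, 217 and 209 TPM in WT. In *phyB*-null, replicates 1 and 4 were above 2 and 3, a division seen in LHY, the polyamine oxidase and the spermine synthase-like gene as well. Over all 136 genes, replicate 1 was the highest *phyB*-null library for 53 and replicate 4 for 43, and replicate 2 was the lowest for 64. The TMM factors of *phyB*-null replicates 1 to 4 were 1.07, 0.875, 0.976 and 1.03, and TPM is not corrected by them. The same counts over the 23043 genes were not made, so this order is not shown to be particular to the members. The median coefficient of variation of the members was 38.8% in *phyB*-null, 29.6% in *phyC*-null and 22.6% in WT, compared with 14.5%, 23.1% and 12.4% over the 23043 genes. In *phyB*-null the members were chosen for low levels, so these medians are not set at like levels. The part of level in them was not tested. The 60 members outside the lists, the abundant, the near-silent and the neighbouring genes and those at the limit ranged in *phyB*-null from 0.159 to 16.7 TPM (median 1.18 TPM), against 7.88 TPM as the median in *phyC*-null and 7.64 TPM in WT. Fewer than 20 counts summed over the *phyB*-null libraries were found for 8 members.

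**Figure D5:**
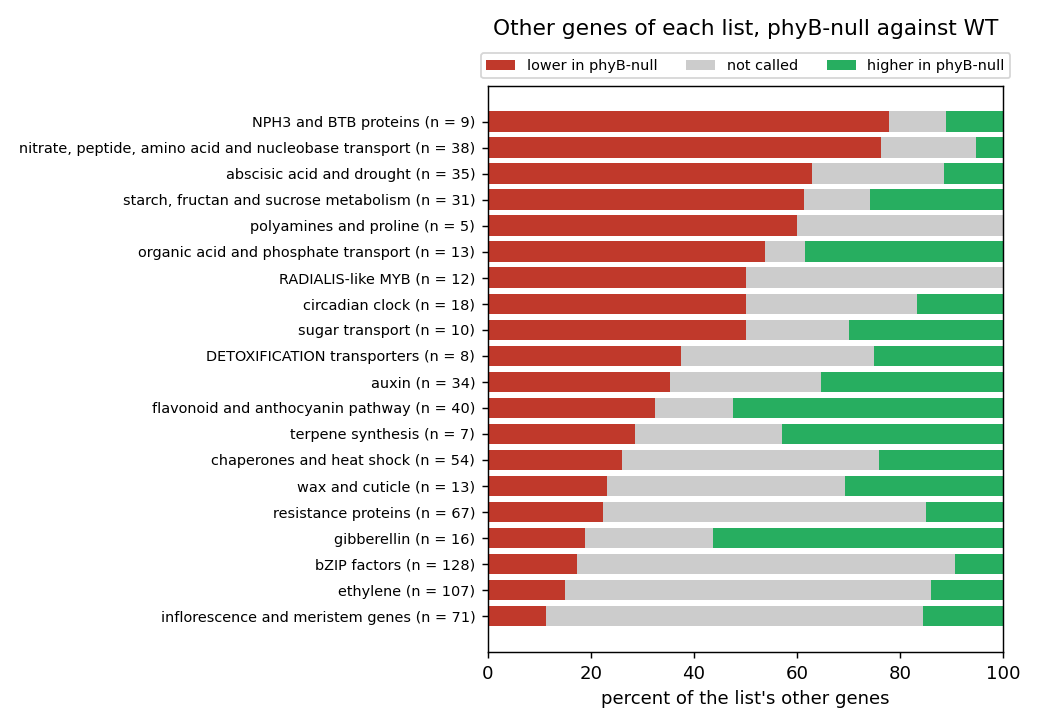
Percentage of the genes outside the set (x axis) that were called lower (red), not called (grey) or called higher (green) in *phyB*-null compared with WT, for the lists with at least 1 member and 5 other tested genes. The lists of NPH3 and BTB proteins (7 of 9) and of nitrogen transport (29 of 38) had the highest shares called lower, and the gibberellin, flavonoid, terpene, wax and cuticle, and inflorescence and meristem lists had more genes called higher than lower.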

How the data were processed

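RNA-seq libraries of 12 plants were analysed, 4 per genotype. The authors aligned trimmed single-end reads to the IWGSC RefSeq v1.0 assembly using GSNAP and deposited raw counts of uniquely mapped reads per gene from HTSeq, whose strand setting is not given in the sources used here, for 72120 genes with 3 or more counts in some library. A second table deposited by the authors holds the TPM of 190459 models. Reads that fit A and B copies or tandem copies equally well are absent from the counts. Libraries ran on 2 lanes, each holding 2 replicates of every genotype. Which replicates shared a lane is not given in the sources used here, so lane was no term in the tests.

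Members were found from mean TPM as described. The members, the lists of related genes and their descriptions were chosen with earlier results of these data known, and the lists came from text searches of the paper's annotation tables, of which only parts were readable. Genotypes were compared on counts with edgeR 4.0.16 in R 4.3.3 (TMM factors, quasi-likelihood test, no covariates, no filter, 8 libraries per comparison), and genes with an adjusted p below 0.01 were called. The replicates are separate plants, so p-values set a difference between genotypes against the spread between plants of the same genotype. They do not separate the phytochrome mutations from other mutations of a line. The test was checked on simulated data. Named genes are members in a list, the 10 most abundant in WT, the 10 with the lowest ratio, neighbouring members and the 3 genes on either side of the limit. Alternatives were DESeq2 1.42.0, limma 3.58.1 on log2(TPM + 1) or log2(TPM + 0.1), other scaling, filters and thresholds, the replicate number as a block, all libraries in one fit and leaving out each library. Genes in the closing observations were chosen after their values were seen. The long-day experiment was not used here, and no sequences were read.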

Additional observations from a re-analysis of the deposited data

Results flagged for a closer look

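Among the 32 members examined by library, 95 groups of 4 libraries were examined for a library that stood apart by Dixon's criterion at 95%, which chance gives in about 1 of 20 groups, and 5 were found. In TraesCS4B01G363700 (apyrase), WT replicate 2 had 289 TPM, above 100 to 120 TPM in the other WT libraries. In TraesCS3B01G428100 (late embryogenesis abundant protein), *phyC*-null replicate 4 had 7.96 TPM, below 24.4 to 25.9 TPM in the others. In TraesCS6B01G289300, WT replicate 1 had 9.08 TPM, above 2.52 to 3.08 TPM in the others. In the same gene *phyB*-null replicate 4 had 0.0629 TPM from a single count, and the others were at 0. In TraesCS1A01G219500 (hexose carrier), *phyB*-null replicate 3 had 0.128 TPM, above 0.0324 to 0.0467 TPM in the others, at very low counts.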

How the results depend on the processing

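The set itself changed with its limits: 237 genes passed with a looser limit on the ratio and 85 with a stricter one, and leaving out single libraries gave 120 to 174 genes. Scaling by TMM instead of TPM gave 132 genes, of which 123 were shared with the 136. The members called lower numbered 127 to 136 against WT and 96 to 136 against *phyC*-null over all settings, 130 to 134 and 102 to 126 when libraries were left out. The members were chosen on these same libraries, so these counts carry no test of them. Between *phyC*-null and WT, DESeq2 called 5 members, the replicate block 2 and an adjusted p below 0.05 called 2, and leaving out libraries gave 0 to 2 (1 without WT replicate 1, 2 without *phyC*-null replicate 3).

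Counts over all genes moved more. For *phyB*-null against WT, 8595 genes became 5388 with the replicate block, 5218 and 5309 with limma at pseudocounts of 1 and 0.1, and 15463 at an adjusted p below 0.05. Leaving out libraries gave 5270 (without *phyB*-null replicate 3) to 8437, with 5573 without WT replicate 2. For *phyB*-null against *phyC*-null, 2462 became 6039 with DESeq2, 3967 with all libraries in one fit, 1107 and 1228 with limma, 6248 at 0.05, and 1063 to 3537 without single libraries: 1594, 1613, 1063 and 1373 without *phyB*-null replicates 1 to 4 and 1545 and 1483 without *phyC*-null replicates 1 and 2. For *phyC*-null against WT, 574 became 2468 with DESeq2, 918 with the block, 907 in one fit, 291 and 364 with limma, 1958 at 0.05, and 329 to 958 without single libraries, the highest without *phyC*-null replicate 3 and 329, 351 and 355 without WT replicates 3, 2 and 1. The cause was not tested. No consistent pairing of samples by replicate number was seen. The correlations of same-numbered deviations from the genotype means ran from -0.22 to 0.01 between *phyB*-null and WT and from -0.45 to 0.47 between the mutants. Between *phyC*-null and WT they ran from -0.02 to 0.18, where 3 of 4 were over 0.1. In no comparison did every library correlate best with its own number. With so few libraries, these correlations cannot exclude a shared replicate or lane effect.

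The share of neighbours called lower was 16.4% with the nearest 2 on either side and 27.2% with DESeq2, against 20.9% with all nearest neighbours, members included. Of 480 alternative values of *phyB*-null against WT for the 32 members examined by library, 479 stayed on their side of the threshold and 1 did not (TraesCS6A01G094200 with all libraries in one fit), and none changed direction. Refits of the libraries that chose the members could hardly change direction, so this stability is no support for the differences. These fits were not repeated gene by gene against *phyC*-null. The 80 recounts of list genes called lower stayed within 1.5-fold, and of those called higher 1 did not: 10 resistance genes became 5 with the replicate block. Depth limits the lowest members: ratios of genes with under 20 counts in *phyB*-null carry wide counting error.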

Other observations

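The members below were chosen after their values were seen. They included further enzymes and signalling proteins. O-methyltransferases add methyl groups to phenolic compounds, and TraesCS1A01G335300 averaged 1.27 ± 0.441 TPM in *phyB*-null, 14.2 ± 2.45 TPM in *phyC*-null and 8.25 ± 2.48 TPM in WT, with every *phyC*-null library above every WT library. TraesCS1A01G335800 averaged 13.4 ± 1.22 TPM in *phyB*-null, 77.5 ± 16.0 TPM in *phyC*-null and 54.8 ± 6.60 TPM in WT, and a caffeoyl-CoA O-methyltransferase, TraesCS4A01G442400, 6.72 ± 1.95 TPM in *phyB*-null, 32.4 ± 7.56 TPM in *phyC*-null and 36.8 ± 7.71 TPM in WT. Cytochrome P450 genes were TraesCS7B01G168800, TraesCS6B01G172700 and TraesCS7A01G270700, at 12.9%, 11.2% and 11.8% of their WT means in *phyB*-null. The gene with the same description as the first of these on 7A, TraesCS7A01G373100, went the other way, at 3.98 TPM in *phyB*-null, 0.632 TPM in *phyC*-null and 0.138 TPM in WT (log2 fold change against WT 4.95, edgeR adjusted p = 1.1e-05). A ribonuclease (TraesCS2A01G264000) averaged 0.417 ± 0.110 TPM in *phyB*-null, 4.88 ± 1.89 TPM in *phyC*-null and 7.62 ± 1.13 TPM in WT.

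Signalling proteins among the members were a CBL-interacting kinase (TraesCS1B01G098600) at 18.0% of WT, an HSL1 receptor kinase (TraesCS3B01G420500) at 9.41%, a receptor-like kinase (TraesCS5B01G015200) at 12.3%, a MAP kinase kinase (TraesCS6B01G379500) at 17.3% and a PP1-like phosphatase (TraesCS6A01G404700) at 8.72%. Genes described as heavy metal transport or detoxification proteins were members on 5A and 5B: TraesCS5A01G171600 averaged 0.150 ± 0.0697 TPM in *phyB*-null, 4.66 ± 4.41 TPM in *phyC*-null and 5.69 ± 2.65 TPM in WT, and TraesCS5B01G169100 averaged 1.503 ± 1.09 TPM in *phyB*-null, 15.3 ± 6.38 TPM in *phyC*-null and 17.9 ± 6.39 TPM in WT. Both had wide spreads in *phyC*-null.

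The 29 members without a description included TraesCS3A01G067400, whose SD exceeded its mean in *phyC*-null and in WT (0.106 ± 0.0434 TPM in *phyB*-null, 6.91 ± 8.20 TPM in *phyC*-null and 5.98 ± 6.56 TPM in WT), and its neighbour TraesCS3A01G067500, not a member, was also lower in *phyB*-null than in WT, at 0.449 TPM in *phyB*-null, 4.22 TPM in *phyC*-null and 4.84 TPM in WT (edgeR adjusted p = 0.0074).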
